A study of Mus musculus with 6 samples.

Results

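Respiratory complex I takes electrons from NADH, passes them through a flavin and a chain of iron-sulfur clusters to ubiquinone, and pumps protons across the inner mitochondrial membrane. It is shaped like an L, with a hydrophilic arm in the matrix that carries the redox centers and a membrane arm that carries the proton pumps. Most of its nuclear genes carry Nduf names, and the names that begin with Ndufaf belong to assembly factors, proteins that help to build the complex and are not part of it. Regulatory T cells (Tregs) are CD4+ T cells that express Foxp3 and restrain other T cells, and they are known to draw on mitochondrial respiration.

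The 47 genes whose symbol begins with Nduf were taken from a table of 13709 gene rows. They comprised 39 genes with subunit names (Ndufa, Ndufb, Ndufc, Ndufs and Ndufv) and 8 Ndufaf genes. All 47 passed the filter on low counts. The RNA came from CD4+YFP+CD25+ Tregs of C57BL/6 mice, with 3 WT samples (Foxp3Cre) and 3 KO samples (Foxp3Cre Zfp335fl/fl). In both genotypes Cre and YFP were made from the Foxp3 locus, so that in KO mice the zinc finger protein gene Zfp335 was deleted in cells that express or had expressed Foxp3. The mice were 2 weeks old per the study's methods. The labels named both lymph nodes and spleen as the tissue, and whether a sample was 1 mouse or a pool was not stated, so p-values measure the spread between these samples.

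Total counts were 32032631 to 40728419 per sample. Levels are in CPM, that is counts scaled to library totals corrected by TMM (a trimmed mean of log ratios between libraries), and are listed from replicate 1 to replicate 3. Zfp335 had 101, 94.3 and 103 CPM in the WT samples against 37.0, 37.9 and 40.2 CPM in the KO samples, a log2 fold change of -1.37 (SE 0.07), so the targeted gene went with the labels. WT replicate 3 stood apart: the biological coefficient of variation was 0.263 within WT, 0.126 between WT replicates 1 and 2, and 0.0703 within KO. The 6 Treg markers Foxp3, Il2ra, Ikzf2, Ctla4, Cd4 and Cd3e summed to 3927 to 5104 CPM in WT and 3309 to 3405 CPM in KO. The 4 proliferation genes Mki67, Top2a, Ccnb1 and Cdk1 summed to 300 to 727 CPM in WT, lowest in WT replicate 3, and to 2276 to 2388 CPM in KO. The 3 myeloid markers measured, Lyz2, Csf1r and Itgam, summed to 8.41 to 19.4 CPM in WT and 37.6 to 42.4 CPM in KO. The neutrophil markers S100a8 and S100a9 were at 0 in every WT sample and summed to 3.57 to 5.42 CPM in KO, and the NK cell markers Ncr1 and Klrb1c summed to 1.71 to 2.58 CPM in WT and 3.39 to 5.05 CPM in KO. In single-cell data from younger mice, the study also reported high S100a8 and S100a9 in a Treg subset that accumulated in KO. It also describes both genes as normally made by neutrophils and monocytes, so in bulk RNA they do not point to 1 cell type. The summed markers of B cells, CD8 T cells and erythroid cells overlapped between the genotypes. Of the 2 CD8 T cell genes, Cd8a and Cd8b1, 1 was higher in KO by the study's cutoffs given below, as were 11.9% of all genes tested. Which cells gave the marker transcripts was not tested, nor was the part of such cells in the values of the Nduf genes. In bulk RNA fewer cells of a type and less RNA per cell cannot be told apart.

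Before the values are given, some sequences are shown that bear on how the Nduf genes can be read. The promoters of respiratory genes are known for sites of YY1 and of ETS family factors. Both strands of RefSeq promoter windows of GRCm38.p6, 250 bases before to 50 bases after the start site, were searched for AAGATGGCG (YY1) and CCGGAAG (ETS) and 41 of the 47 genes had a window. Stretches on the strand of the gene are given for 5 genes that passed the test of KO against WT in either direction and for Ndufaf1, which did not, with the matched letters in capitals. The YY1 stretches of 30 bases lie just after the start site, and those of 60 bases lie just before it. The window of Ndufa4 held none of these letters.
Ndufa9, chr6:126849097-126849126, minus strand: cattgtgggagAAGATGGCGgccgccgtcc
Ndufs4, chr13:114388045-114388074, minus strand: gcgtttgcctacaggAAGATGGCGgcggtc
Ndufs7, chr10:80249462-80249491, plus strand: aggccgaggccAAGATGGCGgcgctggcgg
Ndufs3, chr2:90904722-90904781, minus strand: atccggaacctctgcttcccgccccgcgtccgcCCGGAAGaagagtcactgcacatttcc
Ndufaf1, chr2:119662835-119662894, minus strand: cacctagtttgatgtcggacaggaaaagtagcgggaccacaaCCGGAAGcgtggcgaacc
Ndufa4, chr6:11907451-11907510, minus strand: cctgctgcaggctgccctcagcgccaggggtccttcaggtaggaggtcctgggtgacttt

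The YY1 letters were found in 6 of the 41 windows (14.6%), against 1.64% of the windows of all 27025 genes in the RefSeq table and 3.33% of those of the 10654 genes tested here that had a window. They lay within the first 50 bases after the start site in all 6, which were the windows of Ndufa9, Ndufs4, Ndufs7, Ndufc1, Ndufs6 and Ndufaf8. Of these, Ndufa9 and Ndufs4 were higher in KO, Ndufs7 was lower, and the others did not pass. The ETS letters were in 6 of 41 (14.6%), against 9.93% and 19.3%. A match is a string of letters and not a shown site, and these shares were not tested.

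Sequence also decides how well a gene can be counted. Ndufb4c, a single-exon copy on chromosome 15 (73809449 to 73809933, minus strand), has a transcript of 390 bases in GENCODE M21, and all 390 are identical to bases of Ndufb4, a membrane arm subunit gene that is not analysed here. Both share the stretch shown here, bases 1 to 60 of the longest open reading frame of Ndufb4.
Ndufb4 and Ndufb4c: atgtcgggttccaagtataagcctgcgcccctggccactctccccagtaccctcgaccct

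Reads of these copies cannot be told apart by sequence, so the Ndufb4c count is uncertain. Of the 46 Nduf genes found in GENCODE M21, 13 shared at least 5% of their stretches of 50 bases with another annotated gene. Among the 13 were Ndufs3 (35.8%) and Ndufb8 (13.5%, with the coding gene Gm20538). Another 29 genes shared none. Exons of 10 Nduf genes overlapped a coding gene by at least 5% of their bases. Ndufb4b, named as another copy of Ndufb4, lies on chromosome 19 (25033108 to 25033578, plus strand) inside Dock8 but outside its exons. Counts of Ndufb4b could therefore hold intron reads of Dock8, whose level was 382 ± 39.5 CPM in the WT samples and 406 ± 13.0 CPM in the KO samples (SD, n = 3 each).

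Of the 47 Nduf genes, 0 met the study's cutoffs in edgeR's quasi-likelihood test (fold change above 1.5, p under 0.05 and Benjamini-Hochberg adjusted p under 0.1), which 24.4% of all genes tested met. DESeq2 also called 0. In edgeR 12 Nduf genes had an unadjusted p under 0.05, against 6451 of 13566 genes at 1 row per symbol. The same background applies to the counts at an unadjusted p given further below. With no fold cutoff, 11 Nduf genes passed an adjusted p of 0.1 (23.4%, against 47% of all genes). They were 5 with higher and 6 with lower levels in KO (10.6% and 12.8%, against 22.7% and 24.3% of all genes). Among the 8657 genes with a WT level in the range of the Nduf genes, 25.1% met the study's cutoffs and 52.1% passed the adjusted p. The values of KO and WT did not overlap in 16 Nduf genes, 9 higher and 7 lower (34.0%, against 53.8% of all genes, and by direction 26.2% and 27.6%). The fitted log2 fold changes ran from -0.57 for Ndufb4b to 0.39 for Ndufaf2.

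Most of these genes were measured closely enough to bound the difference. In 41 of 47 Nduf genes (87.2%) the 95% interval of the fold change lay within 1.5-fold in either direction, against 38% of all genes tested and 47.7% of those 8657 genes. The remaining 6 had an interval that reached past 1.5-fold on 1 side: Ndufb4b, Ndufc1, Ndufb1 and the assembly factors Ndufaf2, Ndufaf4 and Ndufaf6. The median log2 fold change was 0.06 over the 47 genes and -0.04 over all genes tested. The numbers of Nduf genes past the adjusted p, out of 47, depended on single samples. Without WT replicate 2 they were 12 higher and 2 lower, where 21.5% and 22.4% of all genes passed. Without WT replicate 3 they were 5 higher and 11 lower, against 29.3% and 28.6%. Without WT replicate 1 they were 3 and 5, against 20.9% and 22.2%. Leaving out any 1 KO replicate left 1 to 3 higher and 1 to 2 lower, against 17.7% to 18.0% and 17.8% to 18.1%. Offsets for GC content and transcript length gave 10 higher and 3 lower, against 25.3% and 22.5%.

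**Figure D1:**
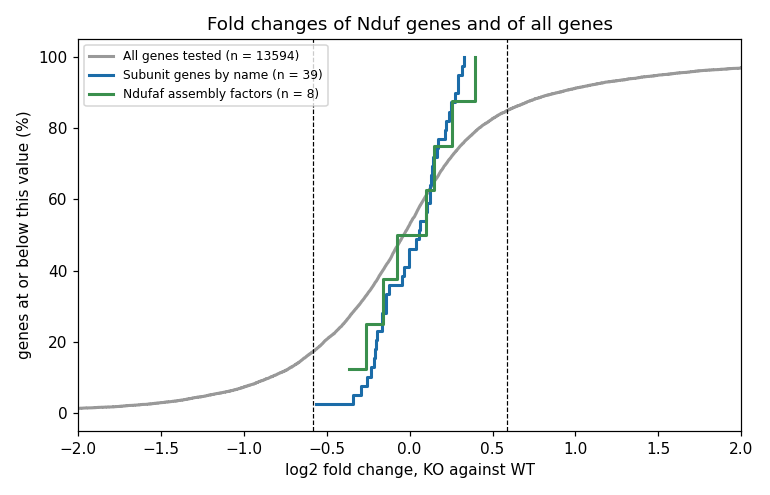
Cumulative share of genes (%) against the log2 fold change of KO against WT, for 13594 genes tested (gray), 39 genes with subunit names (blue) and 8 Ndufaf genes (green), with dashed lines at 1.5-fold. The axis ends at -2 and 2, so the ends of the gray line are not shown. Both Nduf lines rise within the dashed lines, while the gray line has a share of genes outside them on each side.

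Core subunits are those kept from bacteria to mammals, and 7 of them are nuclear. Their log2 fold changes ran from -0.29 for Ndufs7 to 0.17 for Ndufs8. In edgeR 0 were higher and 2 lower at an adjusted p under 0.1, 2 had an unadjusted p under 0.05, and DESeq2 gave 0 higher and 1 lower. The 2 lower were 28.6% of the core genes, against 24.3% of all genes. All 7 intervals lay within 1.5-fold. Ndufs7, which holds the last iron-sulfur cluster and helps to line the ubiquinone site, was 37.6, 31.5 and 33.8 CPM in WT and 26.2, 27.6 and 30.4 CPM in KO. Every KO value was below every WT value, and the fitted log2 difference was -0.29 (SE 0.10, edgeR adjusted p 0.0563). The call was lost without WT replicate 1, KO replicate 1 or KO replicate 2 and with GC and length offsets, where the log2 fold change was -0.05. Ndufs3, a subunit of the same module and one with shared stretches of sequence, was 60.6, 67.9 and 55.7 CPM in WT and 51.7, 55.9 and 50.9 CPM in KO. The groups overlapped, since KO replicate 2 was above WT replicate 3, and the log2 fold change of -0.22 (SE 0.09) had an edgeR adjusted p of 0.0998. That p was at the threshold, and it was under it in 4 of 14 fits, which are the reported fit and 13 alternatives to it.

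The core genes that follow did not pass. Ndufs1, the largest core subunit and a carrier of iron-sulfur clusters, was 84.9, 89.9 and 82.6 CPM in WT and 97.7, 92.2 and 92.2 CPM in KO. All KO values were above all WT values, but the log2 fold change of 0.13 (SE 0.07) had an edgeR adjusted p of 0.157. Ndufv1, which binds the flavin and oxidizes NADH, had a log2 fold change of 0.11 (95% interval -0.13 to 0.34). Its partner Ndufv2 had -0.03 (-0.33 to 0.26), and Ndufs8, which carries iron-sulfur clusters on the way to ubiquinone, had 0.17 (-0.05 to 0.40). Ndufs8 gained the call without WT replicate 2 (0.25, edgeR adjusted p 0.0857) and with GC and length offsets (0.29, edgeR adjusted p 0.0228), and was 0.10 without WT replicate 3.

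Accessory subunits surround the core, and many of them, though not all, are needed for its stability or assembly. Of the 29 such genes, 18 had a log2 fold change above 0, with 5 higher and 1 lower at an adjusted p under 0.1 (5 and 0 in DESeq2). These were 17.2% and 3.45% of the accessory genes, against 22.7% and 24.3% of all genes. The 5 that rose were Ndufa9, Ndufs4, Ndufa10, Ndufa8 and Ndufb8, to between 116% and 125% of WT.

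Ndufa9, which sits on the hydrophilic arm next to the membrane and binds a nucleotide, was 51.4, 50.3 and 48.8 CPM in WT and 63.7, 60.7 and 64.4 CPM in KO. The WT samples lay close together and every KO sample was above them, with a log2 fold change of 0.33 (SE 0.07, edgeR adjusted p 0.00728). It passed an adjusted p of 0.1 in all 14 fits, with log2 fold changes of 0.29 to 0.35. Ndufs4, an accessory subunit of the NADH module whose loss is a known cause of Leigh syndrome, was 37.2, 43.4 and 33.9 CPM in WT and 47.9, 45.0 and 49.5 CPM in KO. WT replicate 2 came close to KO replicate 2, but the groups did not overlap (log2 fold change 0.32, SE 0.11, edgeR adjusted p 0.0467). It did not pass without WT replicate 1, KO replicate 1 or KO replicate 3.

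On the membrane arm, Ndufa10, a subunit of the nucleoside kinase fold on the matrix side, was 85.4, 95.6 and 74.5 CPM in WT and 104, 101 and 109 CPM in KO. KO samples were above WT samples throughout, with a log2 fold change of 0.29 (SE 0.10, edgeR adjusted p 0.0450). Ndufa8, on the intermembrane space side, was 44.0, 51.6 and 45.3 CPM in WT and 56.7, 56.8 and 56.6 CPM in KO. The KO values were nearly the same in all replicates and above WT, with a log2 fold change of 0.27 (SE 0.08, edgeR adjusted p 0.0340). Ndufb8, a membrane arm subunit often probed on blots as a readout of assembled complex I, was 49.9, 56.2 and 53.3 CPM in WT and 61.2, 59.8 and 63.8 CPM in KO. Its groups did not overlap either (log2 fold change 0.21, SE 0.08, edgeR adjusted p 0.0562), but it shares stretches of sequence with Gm20538. Ndufa10 and Ndufa8 each lost the call without KO replicate 1 and without KO replicate 3, Ndufa8 also without KO replicate 2, and Ndufa10 also without TMM scaling. Ndufb8 lost it without any 1 KO replicate, without WT replicate 1, with the replicate number as a block and without TMM scaling.

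The accessory gene that fell, Ndufa7 of the hydrophilic arm, was 38.4, 49.7 and 46.0 CPM in WT and 35.3, 39.3 and 37.6 CPM in KO. The groups overlapped, since WT replicate 1 was below KO replicate 2, and the log2 fold change of -0.26 (SE 0.11) had an edgeR adjusted p of 0.0978. It passed in 6 of 14 fits. The other 23 accessory genes had log2 fold changes of -0.23 to 0.29 and did not pass, and in 2 of them, Ndufb1 and Ndufc1, the interval reached past 1.5-fold.

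**Figure D2:**
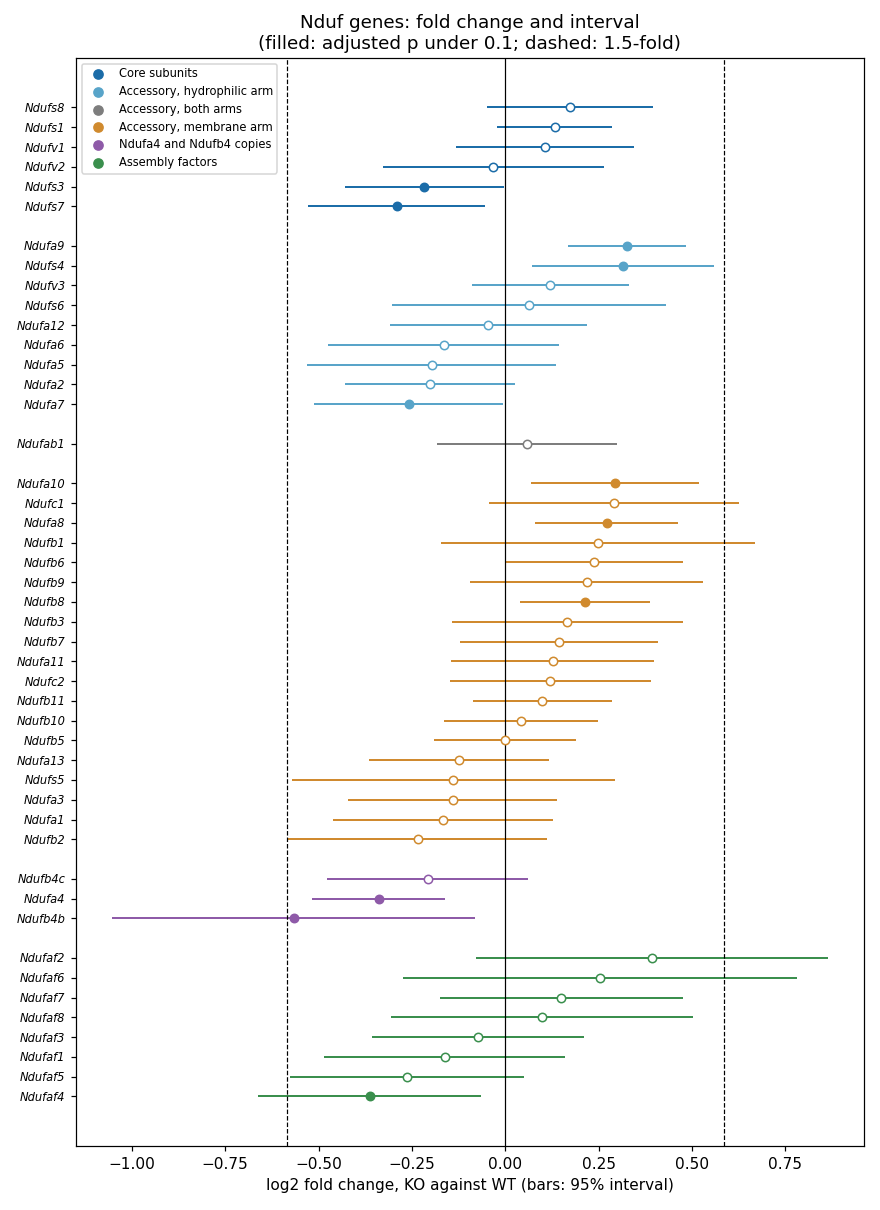
Log2 fold change of KO against WT (x axis, points) with its 95% interval (bars) for 46 of the 47 Nduf genes, grouped by class and ordered by value within a class. Filled points are the 11 genes with an adjusted p under 0.1, and dashed lines mark 1.5-fold. All points lie between the dashed lines. Points of both arms lie on either side of 0, with a median of 0.13 for the membrane arm and -0.02 for the hydrophilic arm.

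Sorted by place in the complex, the 19 membrane arm genes had 13 log2 fold changes above 0, a median of 0.13, and 3 higher and 0 lower at an adjusted p under 0.1 in edgeR, as in DESeq2 (4 had an unadjusted p under 0.05). The 16 hydrophilic arm genes had 7 above 0, a median of -0.02, and 2 higher and 3 lower (2 and 1 in DESeq2). The higher genes were 15.8% of the membrane arm and 12.5% of the hydrophilic arm, against 22.7% of all genes, and the lower genes were 0% and 18.8%, against 24.3%. Among all genes tested 47.1% had a log2 fold change above 0. The membrane arm median was above 0 under every alternative tried, from 0.07 to 0.19, whereas that of the hydrophilic arm took both signs. Per sample, the mean log2(CPM + 0.5) of the membrane arm minus that of the hydrophilic arm was -0.490, -0.382 and -0.459 in WT and -0.378, -0.366 and -0.299 in KO. The KO values were nearer to 0 than all WT values, with WT replicate 2 next to KO replicate 1. The difference between the arms was not tested, since the members are not replicates.

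**Figure D3:**
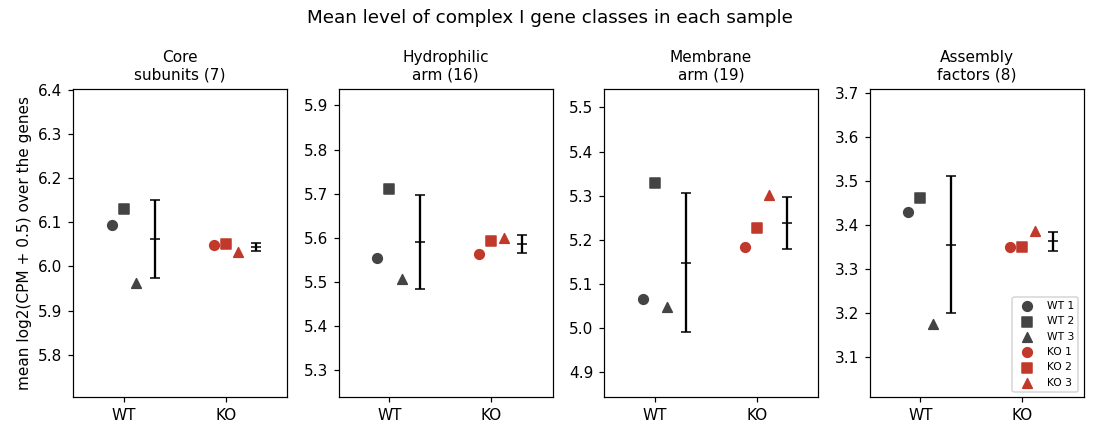
Mean log2(CPM + 0.5) over the genes of a class in each sample, for 7 core subunits, 16 hydrophilic arm subunits (core included), 19 membrane arm subunits and 8 assembly factors, with bars at the mean ± SD of 3 samples. The axes have the same span but start at different levels. WT replicate 2 is the highest sample in each class and the KO samples lie close together, between the lowest and the highest WT sample.

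The genes Ndufa4, Ndufb4b and Ndufb4c were kept apart from the subunits. Ndufa4 was named for complex I and is now known as a subunit of complex IV, cytochrome c oxidase. It was 64.8, 73.5 and 66.8 CPM in WT and 52.9, 56.2 and 52.9 CPM in KO. All KO samples were below all WT samples, at 79.0% of WT (log2 fold change -0.34, SE 0.08), and the fall passed an adjusted p of 0.1 in all 14 fits, with log2 fold changes of -0.38 to -0.26. Its paralog Ndufa4l2 is not analysed here. Ndufb4b was 9.15, 8.49 and 6.88 CPM in WT and 6.02, 6.30 and 4.23 CPM in KO, with KO replicate 3 the lowest. The groups did not overlap, and the log2 fold change of -0.57 (SE 0.21, 95% interval -1.05 to -0.08, edgeR adjusted p 0.0663) was close to the fold cutoff. It met the study's cutoffs without WT replicate 3, without KO replicate 2 and without TMM scaling, and lost the adjusted p without WT replicate 1, WT replicate 2, KO replicate 1 or KO replicate 3. Dock8, around it, had a log2 fold change of 0.08 (edgeR adjusted p 0.482). Ndufb4c was at 86.6% of WT, with no overlap between the groups and an edgeR adjusted p of 0.198.

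Assembly factor transcripts were less abundant than most subunit transcripts. Per kb of the principal GENCODE transcript, the WT level of the 8 Ndufaf genes had a median of 8.68 CPM and ran from 2.77 for Ndufaf6 to 10.6 for Ndufaf8. The 36 subunit genes without Ndufa4, Ndufb4b and Ndufb4c had a median of 47.9 CPM per kb and ran from 6.57 for Ndufc1 to 123 for Ndufb7. The ranges overlapped at their ends, and the order of the medians was the same in KO, at 7.64 and 50.7 CPM per kb.

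Of the Ndufaf genes, 0 were higher and 1 was lower at an adjusted p under 0.1 in edgeR and in DESeq2, and 1 had an unadjusted p under 0.05 in edgeR. In edgeR these were 0% and 12.5% of the Ndufaf genes, against 22.7% and 24.3% of all genes. Ndufaf4, which binds an early module of the hydrophilic arm together with Ndufaf3, was 19.4, 24.7 and 18.9 CPM in WT and 16.7, 16.9 and 15.5 CPM in KO. KO samples were below all WT samples, at 77.7% of WT, with a log2 fold change of -0.36 (SE 0.13, edgeR adjusted p 0.0578). It did not pass without WT replicate 2 or without any 1 KO replicate. Its partner Ndufaf3 was 9.40, 10.1 and 9.79 CPM in WT and 9.42, 9.48 and 8.96 CPM in KO, with overlapping groups and a log2 fold change of -0.07 (95% interval -0.36 to 0.21).

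Ndufaf5 is an enzyme that modifies an arginine of Ndufs7, and Ndufaf7 is a methyltransferase. Ndufaf5 was 8.94, 9.26 and 8.74 CPM in WT and 6.92, 7.96 and 7.55 CPM in KO. All KO values were below WT, as they were for its target Ndufs7, but its log2 fold change of -0.26 (SE 0.14) had an edgeR adjusted p of 0.164. Ndufaf8, which stabilizes Ndufaf5, was 8.86, 9.01 and 6.88 CPM in WT and 8.51, 7.79 and 10.2 CPM in KO, with overlap and a log2 fold change of 0.10. Ndufaf7 was 21.2, 19.2 and 14.8 CPM in WT and 20.4, 20.7 and 20.2 CPM in KO. Here the KO samples lay inside the WT range (log2 fold change 0.15, 95% interval -0.18 to 0.47).

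Ndufaf2, a paralog of the subunit Ndufa12 that acts late in assembly, was 7.01, 7.86 and 4.78 CPM in WT and 8.87, 8.66 and 8.25 CPM in KO. The KO values were all above WT, WT replicate 3 was far below the other WT samples, and the log2 fold change of 0.39 (SE 0.20, 95% interval -0.08 to 0.86) had an edgeR adjusted p of 0.167. It was 0.21 without WT replicate 3, and 0.54 without WT replicate 2, where it passed (edgeR adjusted p 0.0932). Ndufaf6, a factor for building the part around the mitochondrially encoded ND1, was 3.31, 2.95 and 2.73 CPM in WT and 3.26, 3.36 and 4.11 CPM in KO. Its interval of -0.28 to 0.78 was among the widest. Ndufaf1, of the MCIA complex that assembles the membrane arm, was 16.3, 14.8 and 12.05 CPM in WT and 13.4, 12.4 and 12.7 CPM in KO, with overlap and a log2 fold change of -0.16 (95% interval -0.48 to 0.16). Without WT replicate 3 it was -0.28 and passed (edgeR adjusted p 0.0616).

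Other assembly factors with different names were taken from a list of 11, of which Coa1 is not analysed here. Of the 10 measured, 0 met the study's cutoffs in edgeR or DESeq2, where 24.4% of all genes met them in edgeR, and 2 had an unadjusted p under 0.05. At an adjusted p under 0.1, 0 were higher and 1 was lower (0% and 10%, against 22.7% and 24.3% of all genes). That gene, Tmem126b of the MCIA complex, was 19.5, 23.7 and 15.95 CPM in WT and 13.5, 15.0 and 16.3 CPM in KO, with KO replicate 3 above WT replicate 3 (log2 fold change -0.40, SE 0.16, edgeR adjusted p 0.0840). It did not pass with RLE scaling, with the replicate block, or without any 1 sample other than WT replicate 3. Among its MCIA partners, log2 fold changes were -0.28 (Acad9), -0.01 (Ecsit) and 0.04 (Timmdc1), beside -0.16 for Ndufaf1 given above. Acad9 ran from -0.14 without WT replicate 1 to -0.44 without WT replicate 3, where it passed (edgeR adjusted p 0.000480), and it also passed with the replicate block (edgeR adjusted p 0.0963). The remaining values were -0.29 for Lyrm2, -0.21 for Tmem186, -0.07 for Dmac2, -0.004 for Foxred1, 0.05 for Nubpl and 0.19 for Dmac1. Of these, Lyrm2 and Tmem186 passed an adjusted p of 0.1 in edgeR without WT replicate 3 and with library totals alone, and Tmem186 and Dmac1 passed with GC and length offsets. The 7 mitochondrially encoded subunit genes (mt-Nd) are not analysed here.

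Subunit genes and assembly factors both had medians near 0. The median log2 fold change was 0.06 over the 39 genes with subunit names and 0.01 over the 8 Ndufaf genes, the latter turning to -0.03 with library totals alone. Without WT replicate 3 the medians were -0.01 and -0.05. Per sample, the mean log2(CPM + 0.5) of the subunit genes exceeded that of the Ndufaf genes by 1.91 ± 0.12 in WT and by 1.92 ± 0.02 in KO (SD, n = 3 each). The 3 KO differences lay inside the WT range.

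The level of the whole class varied more among WT samples than between genotypes. The mean log2(CPM + 0.5) of the subunit genes was 5.21, 5.42 and 5.18 in WT and 5.25, 5.28 and 5.32 in KO, and that of the Ndufaf genes was 3.43, 3.46 and 3.18 in WT and 3.35, 3.35 and 3.39 in KO. In both, the KO samples lay between the WT samples. WT replicate 2 was the highest WT sample in 37 of 47 Nduf genes (78.7%), against 30.8% of all genes, and WT replicate 3 was the lowest in 28 (59.6%), against 39.3%. The median coefficient of variation over Nduf genes was 11.1% in WT and 5.99% in KO, where over all genes it was 13.8% and 6.57%. The summed proliferation genes were 727, 721 and 300 CPM in WT replicates 1 to 3. Whether they are related to the Nduf levels was not tested.

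**Figure D4:**
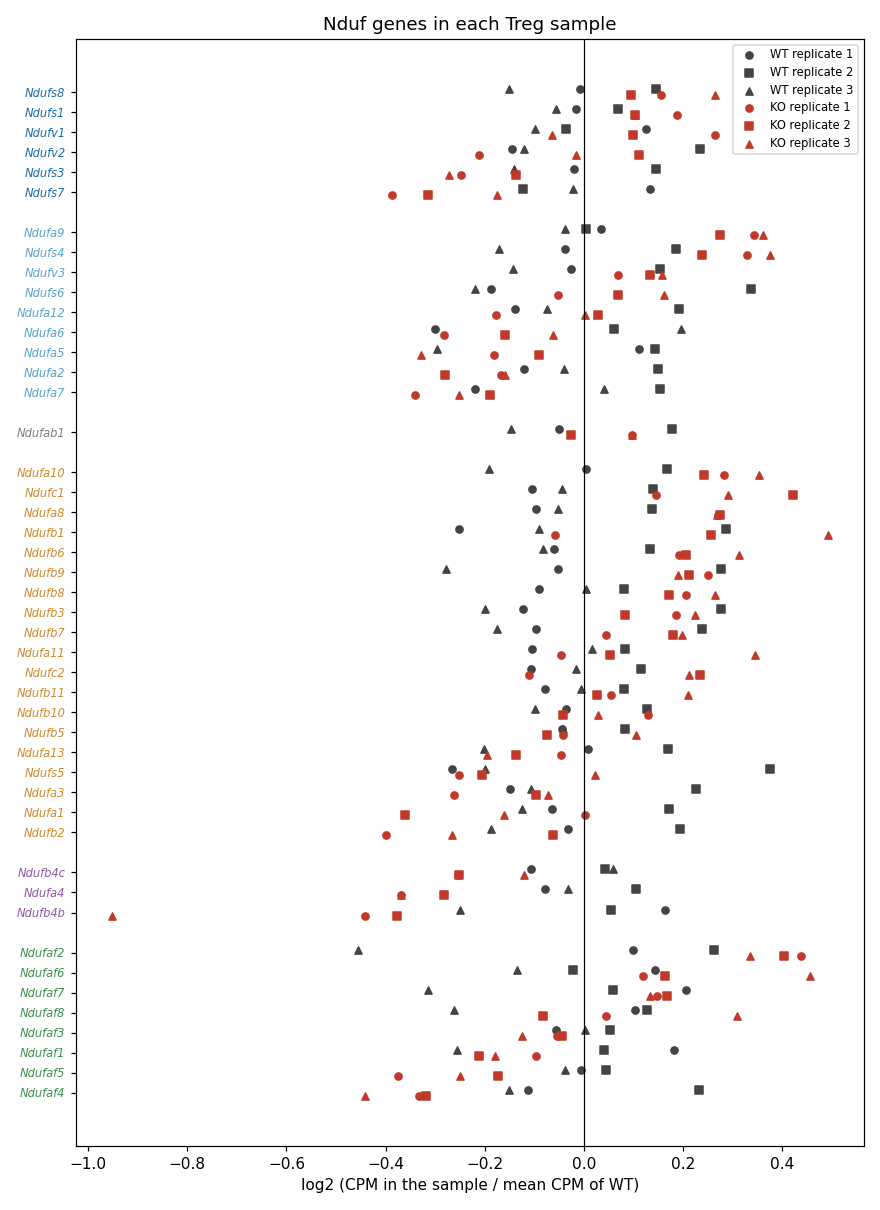
Log2 of the CPM in a sample over the mean CPM of WT (x axis) for 46 of the 47 Nduf genes, with WT replicates in gray and KO replicates in red and a marker shape per replicate. From top to bottom the genes are core subunits, hydrophilic arm accessory subunits, Ndufab1 of both arms, membrane arm subunits, Ndufa4 with the Ndufb4 copies, and assembly factors. WT replicate 2 (gray squares) is the rightmost WT point for 37 genes, and KO points are apart from WT points for 16 genes.

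Beside the complex I genes, the nuclear genes of complexes II to V and of the mitochondrial ribosome were counted from lists written for this purpose. Of 42 genes of complexes II to V, 14 were higher and 2 lower at an adjusted p under 0.1. These were 33.3% and 4.76% of the list, against 22.7% and 24.3% of all genes. The median log2 fold change of the list was 0.13. By the study's cutoffs 2 were higher and 1 lower, against 11.9% and 12.5% of all genes. Ndufa4 is not in this list. Of 79 mitochondrial ribosomal protein genes, 11 were higher and 7 lower at the adjusted p (13.9% and 8.86%), with a median of 0.05. The summed level of the 36 complex I subunit genes was 1618, 1830 and 1557 CPM in WT and 1726, 1725 and 1778 CPM in KO, with the KO samples inside the WT range. That of complexes II to V was 4865, 5330 and 4838 CPM in WT and 5865, 5719 and 5824 CPM in KO, with all KO samples above WT. By the mean log2(CPM + 0.5), in which abundant genes weigh no more than others, complexes II to V were 6.29, 6.49 and 6.32 in WT and 6.47, 6.53 and 6.54 in KO, and the groups overlapped. Whether the lists differ from each other was not tested.

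Across the 36 subunit genes, the order of levels was kept between the genotypes (Pearson's r 0.98, Spearman's rho 0.98 between log2 levels in WT and KO). The log2 fold change had a Pearson's r of 0.34 with log2 transcript length and of -0.27 with GC content, against 0.01 and -0.05 over 13514 genes. These are correlations across genes of the same libraries, so the points are not independent, and the gene of each point brings its own length and composition.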

How the data were processed

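RNA-Seq was done on sorted Tregs of 3 WT and 3 KO samples, grouped by the genotype in the labels. The study's methods name SOAPnuke for read filtering, HISAT2 for alignment to mm10 and StringTie for quantification. The authors deposited whole-number counts per gene, without normalization. How whole numbers were obtained, the annotation and the use of strand are not given in the sources used here. The smallest sum over the 6 samples was 60. Unstranded counting can add reads of overlapping genes.

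Counts were tested with edgeR 4.0.16 (R 4.3.3): filterByExpr (minimum count 10), TMM, and the quasi-likelihood F-test of KO against WT over 6 samples with no covariate, two-sided, with Benjamini-Hochberg adjustment over 13594 genes. The SE is the log2 fold change divided by the square root of F, and the 95% interval uses the test's degrees of freedom. DESeq2 1.42.0, the study's tool, was an alternative. Procedures were tested on simulated data. The log scale used a pseudocount of 0.5 CPM. At these depths 3 counts correspond to 0.0747 to 0.0913 CPM, for counting error only.

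The members and lists were chosen with earlier results of these data known. Classes and lists were written from general knowledge. Genes named are Zfp335, Ndufa4, the core subunits, Ndufaf genes and other assembly factors (1 member is counted but not reported here by name), and the 5 largest rises and falls at an adjusted p under 0.1. Others named in counts (Ndufb1, Ndufc1, Ndufb4c, Dock8) or for a sequence match or an extreme level were chosen after their values were seen. Alternatives were other scalings, filters, cutoffs, tests, offsets for GC content and length, a replicate block, and leaving out each sample.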

Additional observations from a re-analysis of the deposited data

How the results depend on the processing

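With adjusted p under 0.05 and no fold cutoff, 5244 genes in all and 5 Nduf genes passed, 4 higher and 1 lower, and a test against a 1.5-fold change (glmTreat) called 1686 genes and 0 Nduf genes. All fitted Nduf fold changes were under 1.5-fold, so glmTreat could not call any of them and its 0 adds no evidence. Without TMM factors 1 Nduf gene met the study's cutoffs (Ndufb4b) and 3 were higher at an adjusted p under 0.1, against 20.6% of all genes. Offsets for GC content and length gave 10 higher and 3 lower, against 25.3% and 22.5% of all genes. Leaving out 1 sample gave 2867 to 3667 genes called in all and 0 to 1 Nduf genes called (Ndufb4b, without WT replicate 3 or KO replicate 2). It gave 1 to 12 Nduf genes higher, with 1 without KO replicate 1 or 3, 3 without WT replicate 1 or KO replicate 2 and 12 without WT replicate 2, and 1 to 11 lower, with 1 without KO replicate 1, 2 without WT replicate 2, KO replicate 2 or KO replicate 3, and 11 without WT replicate 3. Over the fits without 1 sample, 17.7% to 29.3% of all genes were higher and 17.8% to 28.6% lower at that adjusted p. Medians ran from -0.01 to 0.10 for subunit genes and from -0.05 to 0.06 for Ndufaf genes, where library totals alone gave -0.03. The cause of these changes was not tested. Deviations of same-numbered WT and KO samples correlated by 0.0576, 0.0328 and -0.00419, so the numbers were not taken to pair the samples. With the replicate number as a block, 3190 genes and 0 Nduf genes were called. At an adjusted p under 0.1, 4 Nduf genes were then higher and 6 lower, against 21.8% and 21.9% of all genes.

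Several log2 fold changes near 0 changed sign. With RLE scaling, with DESeq2, with at least 10 counts in every sample and with the offsets, Ecsit was 0.0112, 0.0112, 0.00370 and 0.0331, and Foxred1 was 0.0127, 0.0126, 0.00541 and 0.0180, in that order. With the replicate block Ecsit was 0.000733 and Foxred1 0.00342. Nubpl was -0.0101 with the offsets. Leaving out 1 sample gave both signs for 5 genes, with -0.106 to 0.0758 for Ecsit, -0.113 to 0.0658 for Foxred1, -0.110 to 0.0960 for Ndufv2, -0.191 to 0.436 for Nubpl and -0.0207 to 0.183 for Ndufaf8. Over all alternatives, 362 values of named genes kept their direction and side of the threshold, 64 lost the call, 12 gained it and 24 changed sign. The tally includes glmTreat, where genes with a fitted change under 1.5-fold could not keep a call. Part of the 64 losses was therefore fixed in advance and carries no evidence.

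Depth limits Ndufaf6 and Ndufb4b most, at 91 to 145 and 149 to 337 counts per sample.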
